A study of Mus musculus with 4 samples.

Results

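The genes described here encode the proteins of the cytosolic ribosome, the particle that translates nuclear mRNAs. They were chosen by symbol: every protein-coding mouse gene named Rpl or Rps with a number, plus *Rpsa*, *Rplp0*, *Rplp1* and *Rplp2*, without pseudogenes and without the kinases that phosphorylate *Rps6*. The rule used no measured change. It found 84 genes, of which 81 were listed in all 4 libraries (49 of the large and 32 of the small subunit), among 15275 genes listed in all 4. These 81 genes are called members below. The remaining 3 were barely transcribed: *Rpl10l* had 0 reads in every library, *Rpl39l* had 2 reads at most and *Rpl3l* 5 at most.

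RNA was sequenced from sympathetic ganglia (SG) of thoracic levels T1 to T4, which send nerve fibres to interscapular brown fat, of C57BL/6 mice aged 12 weeks and kept for 1 day at 5 °C. There were 4 libraries, each 1 pool from 6 mice: WT 1, WT 2, AdNTF3-Tg and TRKC+/-. AdNTF3-Tg mice carry a transgene for the neurotrophin NT-3 under the adiponectin promoter, which drives it in adipocytes, and TRKC+/- mice are haploinsufficient for TRKC (gene *Ntrk3*), the NT-3 receptor, in all tissues. The study asked how this ligand and receptor act on sympathetic neurons. The labels do not say which WT pool belongs to which mutant, so each mutant was compared with the WT pair.

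Every ribosome holds 1 copy of nearly all of its proteins, and their genes are transcribed at high and similar rates in most cells. Their mRNAs are short and abundant, and most begin with a 5′ terminal oligopyrimidine (TOP) tract, a C followed by an unbroken run of C and T (U in the RNA). Through this tract the kinase mTOR and the binding protein LARP1 control how much of each mRNA is translated, so mRNA levels need not follow protein output. Neurons also carry mRNAs of ribosomal proteins into axons.

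Some members have a TOP tract at the listed start of the gene, and examples are shown for that reason. RefSeq promoter sequences (assembly GRCm38.p6) held 61 of the 81 members, in 72 promoters of 250 bases before and 50 after the listed start. A C and at least 4 further pyrimidines stood exactly at the start in 14 of the 72 member promoters (19.4%), compared with 2.51% of all promoters in the table. In the following stretches of 40 bases before and 20 after the start, on the strand of the gene, capitals mark this run.
*Rps6* (chr4:86857348-86857407, minus strand): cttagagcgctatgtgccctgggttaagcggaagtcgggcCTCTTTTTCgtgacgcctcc
*Rps10* (chr17:27635225-27635284, minus strand): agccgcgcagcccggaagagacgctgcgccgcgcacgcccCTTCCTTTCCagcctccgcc
*Rps27* (chr3:90213629-90213688, minus strand): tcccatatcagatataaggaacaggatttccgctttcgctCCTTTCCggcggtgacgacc
*Rpl28* (chr7:4792925-4792984, plus strand): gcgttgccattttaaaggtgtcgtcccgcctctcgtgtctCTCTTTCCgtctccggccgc
*Rpl35* (chr2:39005112-39005171, minus strand): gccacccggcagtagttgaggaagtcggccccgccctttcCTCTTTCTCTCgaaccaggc
*Rpl38* (chr11:114668540-114668599, plus strand): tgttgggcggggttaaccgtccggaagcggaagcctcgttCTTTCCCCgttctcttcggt
*Rplp2* (chr7:141447611-141447670, plus strand): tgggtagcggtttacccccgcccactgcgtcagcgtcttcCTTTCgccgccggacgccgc

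These 7 runs are between 5 and 11 bases long. A run that lies a few bases from the listed start was not counted, as in *Rpl22l1* (chr3:28805468-28805527, plus strand), whose run of 10 pyrimidines begins 1 base after it: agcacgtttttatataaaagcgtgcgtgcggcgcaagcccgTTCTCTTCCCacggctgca. The core motif of ETS factors, CCGGAAG on either strand, was in 36.1% of member promoters and 8.86% of all promoters. AAGATGG, a core of YY1 sites, was in 16.7% and 6.34%, and the TATA box TATAAA was in 11.1% and 13.6%. A match of letters is a description of these windows and not a measured binding site.

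Depth was similar, from 8665955 to 8894985 reads on genes per library. Markers of sympathetic neurons were high in every library (14 of 14 markers listed, summing to 14160 to 15138 FPKM, reads scaled to transcript length and to the reads of the library). *Ntrk3* was measured at 2.45 and 2.52 FPKM in the WT pair, 2.72 in the library labelled TRKC+/- and 2.32 in AdNTF3-Tg, so its level does not mark the heterozygous library. *Ntf3*, the NT-3 gene, was listed only in the library labelled TRKC+/-, at 2 reads. Markers of other tissues differed between the libraries, skeletal muscle most of all: its 12 markers summed to 111 FPKM in WT 1, 4.29 in WT 2 with 2 markers not listed, 51.1 in the library labelled TRKC+/- and 38.1 in AdNTF3-Tg. Across libraries, the 8 brown adipocyte markers summed to 202 to 371 FPKM, the 10 glial markers to 2558 to 2905, the 7 endothelial markers to 37.2 to 43.5, the 6 fibroblast markers to 248 to 324 and the 5 red cell markers, of which 1 was not listed, to 65.2 to 172. B and plasma cell markers stayed at or under 1.55 FPKM and T cell markers at or under 1.30 FPKM in sum. The 9 macrophage markers summed to 312 FPKM in WT 1, 278 in WT 2, 253 in the library labelled TRKC+/- and 219 in AdNTF3-Tg. The part of these cell types in the results on members was not tested.

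Members were among the most abundant mRNAs of the ganglia. Their reads made up 1.92% of all reads on genes in WT 1, 1.76% in WT 2, 1.68% in the library labelled TRKC+/- and 1.54% in AdNTF3-Tg, with narrow 95% Wilson intervals, the widest being 1.92% to 1.93% in WT 1. Per unit of length the share was larger, 6.27%, 5.91%, 5.62% and 5.32% of the FPKM sum in the same order. The intervals of these read shares do not overlap between any pair of libraries, but they cover counting error only, and the WT pair differed from each other by more than WT 2 differed from the library labelled TRKC+/-. In bulk RNA, fewer cells of a type and less RNA per cell cannot be told apart.

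**Figure D1:**
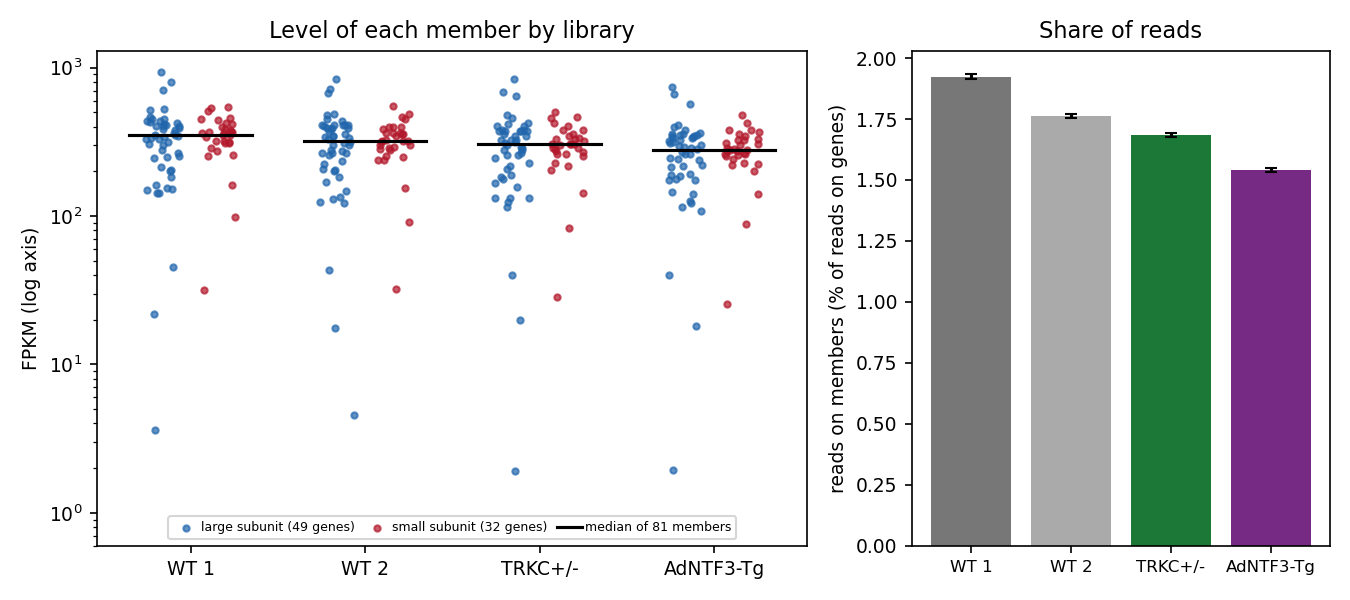
Left, FPKM of each of the 81 members (points, log axis) in the 4 libraries, with the median as a black line; right, reads on members as a percentage of reads on genes, with 95% Wilson intervals. The medians are 351 FPKM in WT 1, 321 in WT 2, 304 in the library labelled TRKC+/- and 281 in AdNTF3-Tg.

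The level of a member spanned a wide range, but 76 of 81 had a mean of at least 100 FPKM and 4 a mean of at least 500. The highest was *Rpl41*, which encodes the smallest ribosomal protein, with 942 FPKM in WT 1, 841 in WT 2, 839 in the library labelled TRKC+/- and 735 in AdNTF3-Tg. *Rplp1*, a protein of the stalk that recruits translation factors, followed with 798, 721, 690 and 669 FPKM in the same order. The AdNTF3-Tg library was the lowest for both genes.

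*Rpl10*, an X-linked protein close to the catalytic centre, came next in mean FPKM, with 706 FPKM in WT 1, 678 in WT 2, 648 in the library labelled TRKC+/- and 567 in AdNTF3-Tg. *Rps2*, which lies near the entry of the mRNA channel, followed and was higher in WT 2 (549 FPKM) than in WT 1 (534 FPKM), with 503 FPKM in the library labelled TRKC+/- and 477 in AdNTF3-Tg. *Rps12*, after it, had 544, 485, 467 and 426 FPKM in the order of *Rpl10*. The means of *Rps2* and *Rps12* differ by less than their range across the libraries, so their order is not fixed by these data.

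At the other end were *Rpl32l* with a mean of 3.0 FPKM, *Rpl7l1* with 19.4, *Rps15a* with 29.4, *Rpl22* with 42.1 and *Rps27l* with 90.5. *Rpl32l*, *Rpl7l1* and *Rps27l* are named as copies of other members. *Rps15a* and *Rpl22* are not copies: *Rps15a* had 1154 to 1442 reads per library and ranked 55 of 81 by mean reads against 79 by mean FPKM, and its FPKM is low because the deposited length is 5158 bases, where the GENCODE transcripts of the gene run from 250 to 5130 bases. The order of members hardly differed between libraries, with Spearman correlations of their FPKM between 0.97 and 0.99 for every pair of libraries (81 genes, which share length and base composition across libraries and are not independent replicates). The ratio of large to small subunit reads was also alike, at 1.59 in WT 1, 1.60 in WT 2, 1.63 in the library labelled TRKC+/- and 1.60 in AdNTF3-Tg.

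The WT pair gives the spread between pools labelled WT. It may hold a difference between cohorts, since the methods give each mutant its own WT controls. In WT 2, 70 of 81 members were lower than in WT 1, where 51.2% of all genes were, and the median log2 ratio (FPKM + 0.1 in each library) was −0.09, compared with −0.01 over all genes. No member differed by 0.5 or more on this scale, where 7.71% of all genes were lower and 5.67% higher by that much. The counting interval of the log2 ratio of reads (Clopper-Pearson, 95%) lay below 0 for 54 members (all genes 11.4%) and above 0 for 1 member, *Rpl22l1* (all genes 9.07%). The WT pools therefore differed in most members by more than counting error.

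In the AdNTF3-Tg library the members were lower as a group, by a small amount. Of 81 members, 80 were lower than the WT mean (all genes 50.5%), and 79 were below both WT libraries, where 34% of all genes were. The median log2 ratio was −0.24, with quartiles −0.30 and −0.19, compared with −0.003 over all genes, and the median member stood at 84.6% of its WT level. The large and the small subunit had medians of −0.24 each. The counting interval lay below 0 for 77 members (all genes 12.7%) and above 0 for 0 (all genes 12%). Markers of some other cell types were low in the same library. Of the skeletal muscle markers listed in all libraries, 9 of 10 were below the WT mean (median log2 ratio −0.51). So were 8 of 9 macrophage markers (−0.29), 7 of 7 endothelial markers (−0.12) and 6 of 8 brown adipocyte markers (−0.39). Medians were −0.04 for sympathetic neuron, −0.01 for glial and 0.04 for fibroblast markers. Between the WT libraries, 9 of 9 macrophage markers (−0.28) and 10 of 10 skeletal muscle markers (−4.55) were lower in WT 2. The same held for 6 of 6 fibroblast markers (−0.36) and 8 of 10 glial markers (−0.12). In the library labelled TRKC+/-, 5 of 9 macrophage markers were below the WT mean (−0.02). The part of these cell types in the lower member values was not tested.

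None of these differences passed the test across genes. By edgeR's quasi-likelihood test, 0 of 81 members were called at an adjusted p under 0.05, where 0% of the 14156 genes tested were called in either direction, and the adjusted p of members ran from 0.817 to 0.975. At an unadjusted p under 0.05, 57 members were lower (35 of the large and 22 of the small subunit) and 0 were higher, compared with 3.28% of all genes lower and 2.59% higher. The DESeq2 Wald test called 0 members and gave 17 members a lower value at an unadjusted p under 0.05 (all genes 0.339%). These p-values rest on the spread of 1 WT pair, which each mutant pool is assumed to share.

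*Rpl32*, of the large subunit, had the smallest unadjusted p of the edgeR test, 0.00255, with 453 FPKM in each WT library, 402 in the library labelled TRKC+/- and 353 in AdNTF3-Tg. Its edgeR log2 fold change in AdNTF3-Tg was −0.38 ± 0.09 (SE). *Rps25*, a small subunit protein needed for initiation at some internal ribosome entry sites, lay lowest among the abundant members, with 288 FPKM in WT 1, 255 in WT 2, 229 in the library labelled TRKC+/- and 202 in AdNTF3-Tg. Both mutant libraries lay below the WT pair for *Rps25*, and the edgeR log2 fold change in AdNTF3-Tg was −0.44 ± 0.11 (adjusted p = 0.817).

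*Rpl36*, also of the large subunit, was at 305 FPKM in WT 1, 257 in WT 2, 268 in the library labelled TRKC+/- and 217 in AdNTF3-Tg, an edgeR log2 fold change of −0.41 ± 0.14 (adjusted p = 0.817). Its AdNTF3-Tg value was below the other 3, which spread widely. *Rpl32l* was the only member past a log2 ratio of 0.5, at −1.03 in AdNTF3-Tg and −1.05 in the library labelled TRKC+/- (all genes lower by 0.5 or more: 6.95% and 5.09%). No member was higher by 0.5 or more (all genes 4.01% and 3.48%). That ratio rests on 17, 21, 9.07 and 9 reads in WT 1, WT 2, the library labelled TRKC+/- and AdNTF3-Tg, with counting intervals that reach −0.01 in AdNTF3-Tg and −0.03 in the library labelled TRKC+/-. With WT 1 as the only control, 3 members were past 0.5 in AdNTF3-Tg, *Rpl32l*, *Rpl37* and *Rps25* (all genes 8.24% lower by 0.5 or more).

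The members nearest to their WT level in AdNTF3-Tg were *Rpl22l1*, *Rpl36a* and *Rpl15*. *Rpl22l1* was the only member above the WT mean, with 161 FPKM in WT 1, 203 in WT 2, 166 in the library labelled TRKC+/- and 188 in AdNTF3-Tg, so both mutants lay between the WT libraries. *Rpl36a*, on the X chromosome, was at 154, 147, 131 and 145 FPKM, and *Rpl15* at 142, 129, 132 and 127 FPKM, in that order of libraries. For *Rpl36a* and *Rpl15* the AdNTF3-Tg value was within 3 FPKM of WT 2.

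**Figure D2:**
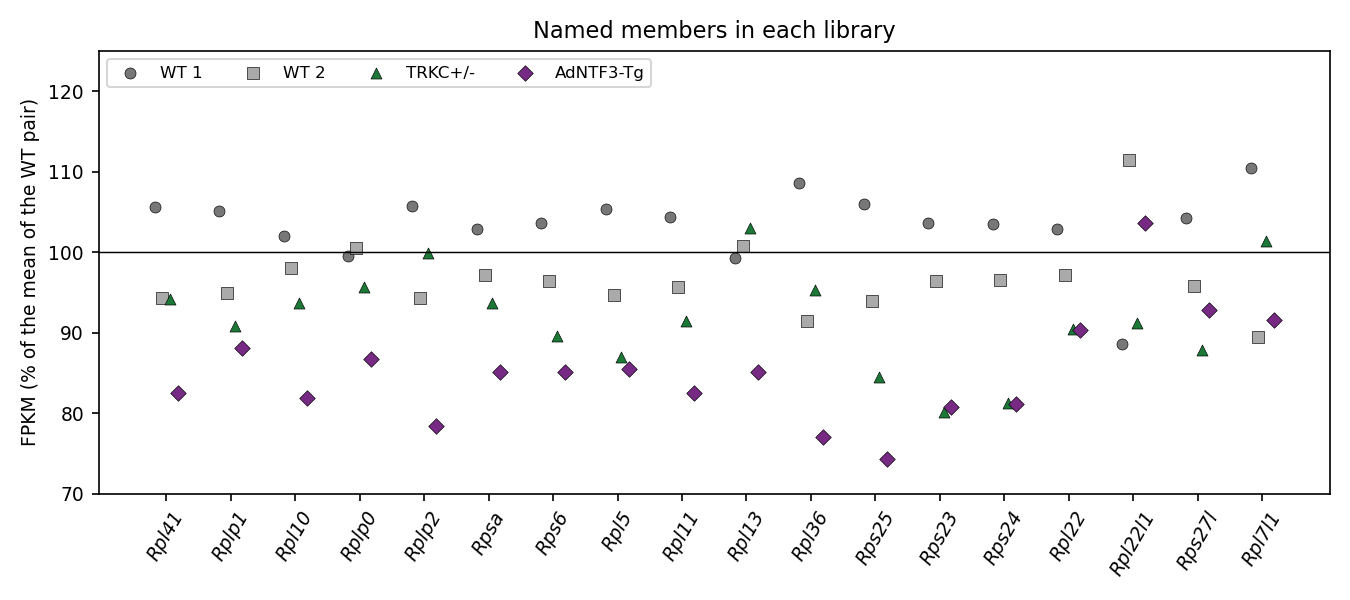
FPKM of 18 named members in each library as a percentage of the mean of the WT pair (line at 100%); the vertical axis starts at 70%. AdNTF3-Tg (diamonds) is below both WT libraries for all of them except *Rpl22l1* and *Rpl7l1*, and the library labelled TRKC+/- (triangles) is above both only for *Rpl13*.

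The library labelled TRKC+/- was also lower, by less when both mutants are set against the same WT libraries. Of 81 members, 78 were below the WT mean (all genes 49.9%), 68 were below both WT libraries (all genes 30.8%) and 1 was above both (all genes 31.9%). The median log2 ratio was −0.14, compared with 0.00 over all genes. It was −0.18 with WT 1 as the only control and −0.09 with WT 2. AdNTF3-Tg had −0.30 and −0.19 against the same single controls. How far the mutants differ thus depends on which WT library is the control of which mutant. The median member stood at 90.8% of its WT level. The large subunit had a median of −0.14 and the small subunit of −0.15. The counting interval lay below 0 for 64 members (all genes 7.95%) and above 0 for 0 (all genes 8.28%). Markers of other cell types also differed in this library. Of the brown adipocyte markers 8 of 8 were below the WT mean (−0.53), and of the skeletal muscle markers 6 of 10 (−0.24). Above it were 8 of 10 glial (0.13), 5 of 6 fibroblast (0.22), 4 of 4 red cell (0.41) and 9 of 14 sympathetic neuron markers (0.03). Their part in the member values was not tested.

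The edgeR test called 0 members in this comparison (all genes 0.00706% lower and 0% higher), with an adjusted p of 0.999 for every member. At an unadjusted p under 0.05, 10 members were lower (all genes 1.12%) and 0 higher (all genes 0.812%), and DESeq2 gave 1 such lower member (all genes 0.127%) and called 0 members. *Rps23*, which lines the decoding centre, was at 424 FPKM in WT 1, 395 in WT 2, 328 in the library labelled TRKC+/- and 331 in AdNTF3-Tg. *Rps24*, a small subunit gene mutated in some patients with Diamond-Blackfan anaemia, was at 382, 356, 300 and 299 FPKM in that order. For both genes the mutants were alike and below the WT pair, with edgeR log2 fold changes in the library labelled TRKC+/- of −0.32 ± 0.10 and −0.30 ± 0.09.

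The 3 members above the WT mean in the library labelled TRKC+/- were *Rpl13*, *Rpl28* and *Rpl7l1*. *Rpl13*, of the large subunit (NCBIM37 chr8:125626250-125629144, plus strand, 6 exons at most), had 403 FPKM in WT 1, 409 in WT 2, 418 in the library labelled TRKC+/- and 346 in AdNTF3-Tg. It was the only member above both WT libraries in 1 mutant and below both in the other, although its log2 ratio to the WT mean in the library labelled TRKC+/-, 0.04, had a counting interval from −0.03 to 0.11. Over all genes, 31.9% were above both in the library labelled TRKC+/- and 34% below both in AdNTF3-Tg. The share of all genes with both was not counted. *Rpl28*, whose TOP tract is shown above, had 351, 314, 346 and 283 FPKM in that order, so the library labelled TRKC+/- lay within the WT pair.

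Compared directly, AdNTF3-Tg was below the library labelled TRKC+/- for 70 of 81 members (all genes 50.5%), with a median log2 ratio of −0.10, or −0.06 after each library was rescaled to the same FPKM sum (59 of 81 lower). Abundant short genes outside the members, of at least 100 FPKM and under 1000 bases, had a median of −0.11 (82.3% of 158 lower), beside −0.12 (86.7% of 60 lower) for members of that level and length. The counting interval lay below 0 for 45 members (all genes 11.7%) and above 0 for 0 (all genes 10.6%). By edgeR 0 members were called (all genes 0% lower and 0.00706% higher), and 7 were lower at an unadjusted p under 0.05 (all genes 2.12%), with 0 higher (all genes 2.56%). No member was past a log2 ratio of 0.5 in either direction (all genes 7.14% lower and 5.98% higher). DESeq2 called 0 members and gave 0 an unadjusted p under 0.05 (all genes 0.12% lower). Both comparisons with WT use the same WT pair, so the shared direction of the mutants is not independent.

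*Rplp2* differed most, with 431 FPKM in WT 1, 384 in WT 2, 407 in the library labelled TRKC+/- and 320 in AdNTF3-Tg, an edgeR log2 fold change between the mutants of −0.37 ± 0.13 (adjusted p = 0.940). *Rpl13* and *Rpl28* had −0.28 ± 0.09 and −0.31 ± 0.13 (adjusted p = 0.940 each). In the other direction *Rps7*, which binds the p53 regulator MDM2, was at 259, 238, 204 and 221 FPKM in the order of *Rplp2*. Its log2 fold change between the mutants was 0.11 ± 0.11 (adjusted p = 0.951), no larger than its error.

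**Figure D3:**
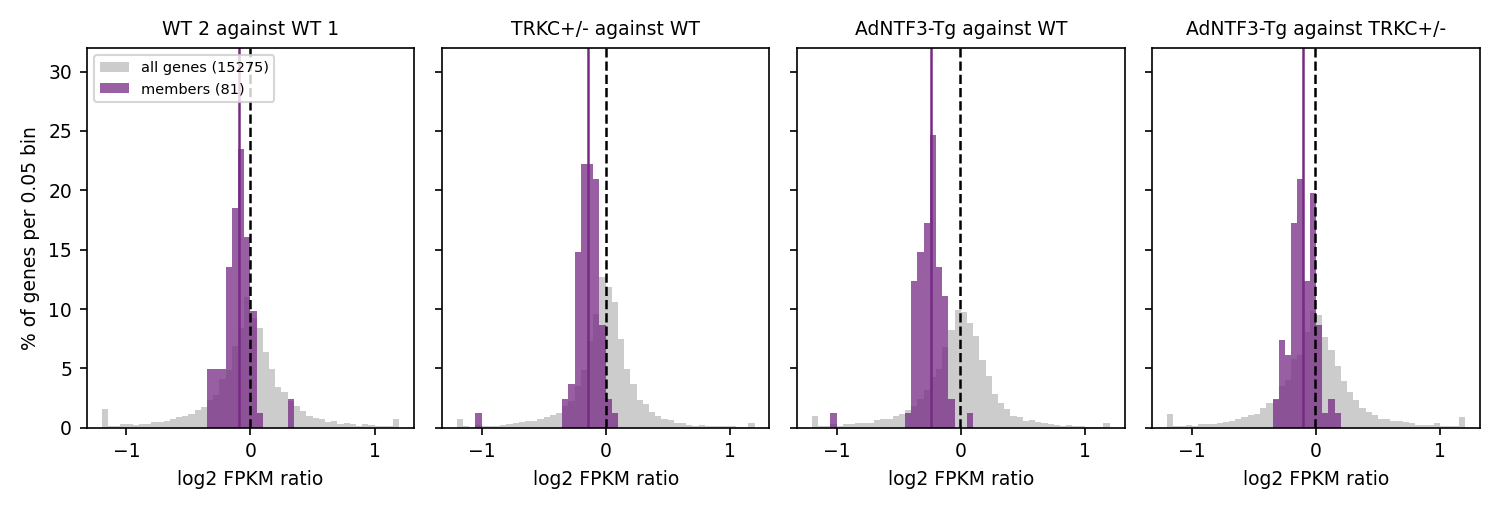
Share of genes per bin of the log2 FPKM ratio for the 81 members (purple, median as a solid line) and all 15275 genes (grey, median as a dashed line); values beyond the axis are put in the end bins. The member median is −0.09 between the WT libraries, −0.14 and −0.24 in the comparisons of the mutants with WT, and −0.10 between the mutants.

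The stalk of the large subunit binds the elongation factors and is built on *Rplp0*, which had 388 FPKM in WT 1, 392 in WT 2, 373 in the library labelled TRKC+/- and 339 in AdNTF3-Tg. Its edgeR log2 fold change in AdNTF3-Tg was −0.21 ± 0.07, beside −0.21 ± 0.10 for *Rplp1* and −0.38 ± 0.11 for *Rplp2*, the acidic proteins that pair on it (adjusted p = 0.817 each). In the library labelled TRKC+/- the same values were −0.07 ± 0.07, −0.14 ± 0.10 and −0.01 ± 0.11.

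*Rpsa*, a small subunit protein also known as the laminin receptor, had 318, 300, 289 and 263 FPKM in WT 1, WT 2, the library labelled TRKC+/- and AdNTF3-Tg. *Rps6*, the substrate of S6 kinase below mTOR, had 310, 289, 268 and 255 FPKM in that order. Both followed the order of the group, WT 1 highest and AdNTF3-Tg lowest, with edgeR log2 fold changes in AdNTF3-Tg of −0.23 ± 0.07 and −0.24 ± 0.08.

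*Rpl5* and *Rpl11*, which can bind MDM2 together with a ribosomal RNA when ribosome assembly fails, had 151 and 520 FPKM in WT 1, 135 and 476 in WT 2, 124 and 455 in the library labelled TRKC+/-, and 122 and 411 in AdNTF3-Tg. *Rps19*, the gene most often mutated in Diamond-Blackfan anaemia, had 276, 237, 253 and 226 FPKM in the order WT 1, WT 2, TRKC+/- and AdNTF3-Tg. *Rps27a*, made as a fusion with ubiquitin, had 309, 315, 263 and 264 FPKM in that order, with both mutants below the WT pair. *Rpl13a*, a large subunit protein also studied for a role in silencing inflammatory mRNAs, had 435, 414, 372 and 345 FPKM.

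Across the 81 members WT 1 was the highest library for 70 and AdNTF3-Tg the lowest for 69, where over all genes these shares were 26.4% and 27.3%. The spread between the highest and the lowest library was small, a ratio of 1.24 for the median member and under 1.5 for 80 of 81, with *Rpl32l* at 2.36. The members with a TOP run at the listed start had a median log2 ratio of −0.28 in AdNTF3-Tg (14 genes), and those in the promoter table without it −0.23 (47 genes). In the library labelled TRKC+/- these medians were −0.16 and −0.14, and between the WT libraries −0.13 and −0.08.

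Some members are paralogs, near copies of another member, and were listed at different levels. *Rps27l* (NCBIM37 chr9:66793893-66797323, plus strand) had 99.1, 91.1, 83.5 and 88.3 FPKM in WT 1, WT 2, the library labelled TRKC+/- and AdNTF3-Tg. The coding sequences of *Rps27* and *Rps27l* are shown to let the reader see how far reads can tell them apart, taken from GENCODE vM1 transcripts, with capitals where the pair differs.
*Rps27*: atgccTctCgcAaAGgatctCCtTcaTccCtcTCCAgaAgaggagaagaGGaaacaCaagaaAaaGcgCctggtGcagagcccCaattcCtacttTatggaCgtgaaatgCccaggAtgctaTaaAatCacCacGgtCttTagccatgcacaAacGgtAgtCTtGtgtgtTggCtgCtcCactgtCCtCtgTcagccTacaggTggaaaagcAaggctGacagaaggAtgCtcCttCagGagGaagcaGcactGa
*Rps27l*: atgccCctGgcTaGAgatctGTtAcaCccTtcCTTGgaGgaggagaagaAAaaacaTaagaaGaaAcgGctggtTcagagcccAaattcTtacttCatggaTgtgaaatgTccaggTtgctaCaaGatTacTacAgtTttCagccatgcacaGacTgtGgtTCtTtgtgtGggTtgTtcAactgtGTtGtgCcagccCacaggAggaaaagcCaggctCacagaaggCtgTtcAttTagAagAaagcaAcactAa

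The 255 bases of this pair differ at 61, and their longest identical run is 11 bases, shorter than the 50-base reads. *Rpl22*, which binds RNA hairpins, and *Rpl22l1* share 70.2% of 369 aligned coding bases, with a longest identical run of 26. *Rpl22* had 45.5, 43.0, 39.99 and 39.9 FPKM in WT 1, WT 2, the library labelled TRKC+/- and AdNTF3-Tg, with both mutants below the WT pair, whereas *Rpl22l1* had its highest value in WT 2. The mean of *Rpl22l1* was 179 FPKM and that of *Rpl22* 42.1 FPKM, whereas by reads *Rpl22* was higher, with a mean of 802 against 655. The order of the pair per length rests on the deposited lengths of 2222 bases for *Rpl22* and 477 for *Rpl22l1*, and the GENCODE transcripts of *Rpl22* run from 474 to 2051 bases. The edgeR log2 fold changes of *Rpl22l1* were −0.13 ± 0.14 in the library labelled TRKC+/- and 0.03 ± 0.14 in AdNTF3-Tg. *Rpl7l1*, a copy of *Rpl7*, had 21.8, 17.7, 19.99 and 18.1 FPKM in the order of *Rpl22*, so both mutants lay within the WT pair.

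The other genes of the pathway showed smaller differences, and edgeR called 0 genes of these lists in any of the 3 comparisons. Of the ribosomal proteins that the symbol rule leaves out, *Fau* had 396, 374, 370 and 362 FPKM and *Rack1* 235, 238, 216 and 218 FPKM in WT 1, WT 2, the library labelled TRKC+/- and AdNTF3-Tg. The 17 elongation factors and other TOP mRNAs had medians of −0.09 in the library labelled TRKC+/- and −0.10 in AdNTF3-Tg. By edgeR, 1 of them was lower at an unadjusted p under 0.05 in each (all genes 1.12% and 3.28%). Among these, *Eef1a1*, which brings aminoacyl-tRNA to the ribosome, had 1366, 1380, 1294 and 1282 FPKM in WT 1, WT 2, TRKC+/- and AdNTF3-Tg.

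The 17 initiation factors had medians of −0.001 and −0.01, with 0 and 1 genes lower at an unadjusted edgeR p under 0.05, and the 38 ribosome biogenesis genes −0.05 and −0.02, with 0 and 2 lower, in the library labelled TRKC+/- and in AdNTF3-Tg. Over all genes 1.12% and 3.28% were lower at that p. The 19 regulators of ribosomal protein synthesis had medians of −0.03 and 0.08, with 0 and 1 genes higher at an unadjusted edgeR p under 0.05 (all genes 0.812% and 2.59%). *Mtor* had 19.1, 19.5, 19.8 and 21.3 FPKM in WT 1, WT 2, TRKC+/- and AdNTF3-Tg. The biogenesis and regulator lists thus did not share the low values of the members in AdNTF3-Tg.

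Short mRNAs outside the ribosome were low as well. The 27 short nuclear subunits of oxidative phosphorylation had medians of −0.15 in the library labelled TRKC+/- (22 lower) and −0.23 in AdNTF3-Tg (27 lower), close to the −0.14 and −0.24 of the members. Between the WT libraries the same 27 genes had −0.14 (24 lower), and the library labelled TRKC+/- had −0.05 against WT 2 alone (19 lower). The 78 mitochondrial ribosomal proteins had −0.06 in the library labelled TRKC+/-, −0.11 in AdNTF3-Tg and −0.05 between the WT libraries. By edgeR at an unadjusted p under 0.05, 15 of the 27 short subunits and 9 of the 78 mitochondrial ribosomal proteins were lower in AdNTF3-Tg (all genes 3.28%), and 5 and 1 in the library labelled TRKC+/- (all genes 1.12%).

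The listed length of a gene moved with its ratio across the whole table. In AdNTF3-Tg, genes other than members with a mean of at least 1 FPKM had a median log2 ratio of −0.27 when shorter than 600 bases (186 genes), −0.15 from 600 to 1000 bases (708), −0.09 from 1000 to 2000 bases (2919) and 0.04 from 2000 bases (8858). Members of the same classes had −0.28 (32 genes), −0.25 (30), −0.21 (15) and −0.19 (4). Members under 600 bases thus had the value of other short genes, and members of the other classes had lower medians than genes of their length. Among abundant short genes, of at least 100 FPKM and under 1000 bases, the 158 non-members had a median of −0.20 in AdNTF3-Tg (95.6% lower), −0.08 in the library labelled TRKC+/- (73.4% lower) and −0.10 between the WT libraries (82.9% lower). The 60 members of that level and length had −0.27 (98.3% lower), −0.14 (96.7% lower) and −0.10 (88.3% lower) in the same order.

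Among non-members the order was the same in the comparison of the library labelled TRKC+/- with WT, between the mutants and between the WT libraries. Members did not follow it through all classes, but their longest class holds only 4 genes. Between the WT libraries only that class departed from the order. In the library labelled TRKC+/- the medians of non-members were −0.11, −0.06, −0.02 and 0.01 from the shortest to the longest class, and those of members −0.18, −0.11, −0.12 and −0.15. Between the mutants they were −0.15, −0.10, −0.07 and 0.02 for non-members and −0.10, −0.14, −0.07 and −0.08 for members. Between the WT libraries they were −0.10, −0.07, −0.02 and 0.01 for non-members and −0.12, −0.08, −0.07 and −0.12 for members. Within the members, length and log2 ratio had a Spearman correlation of 0.35 in AdNTF3-Tg, 0.20 in the library labelled TRKC+/- and 0.22 between the WT libraries, over 81 genes that share libraries and short transcripts.

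When each gene was centred on the median of non-members of its length class, a step chosen after seeing the data, the median of members became −0.08 in AdNTF3-Tg (64 of 81 below 0), −0.08 in the library labelled TRKC+/-, −0.03 between the WT libraries and −0.01 between the mutants. On this scale the medians of both mutants were alike and nearer to 0 than on the deposited scale. The part of length, or of a technical property that follows it, in the lower values of members was not tested.

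**Figure D4:**
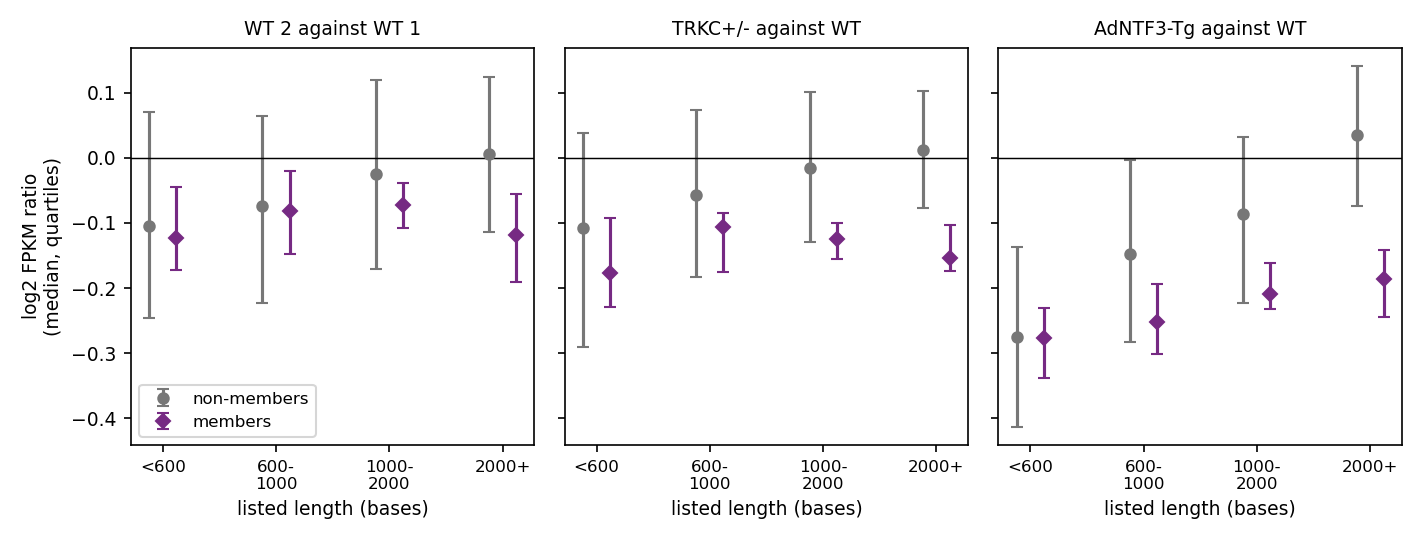
Median log2 FPKM ratio, with quartiles as bars, of members (diamonds) and of non-members with at least 1 FPKM (circles) by listed length in 3 comparisons. In AdNTF3-Tg non-members go from −0.27 in the shortest class to 0.04 in the longest, while members stay between −0.28 and −0.19.

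Some member reads could not be placed on 1 gene. Expected counts were fractional, that is 0.001 or more away from a whole number, in 13 of 81 members in at least 1 library. For 8 of them a single other gene had the matching fraction, so that the counts of the pair summed to whole reads within 0.015 reads, and 7 of these 8, all but *Rpl26*, were fractional in at least 3 libraries. The 7 pairs were *Rps2* with *Gm10653*, *Rpl30* with *Gm12191*, *Rps19* with *Rps19-ps3*, *Rps26* with *Gm6654*, *Rpl37* with *Rpl37rt*, *Rpl22l1* with *Gm15421* and *Rpl34* with *Rpl34-ps1*. For these members the level is uncertain by the reads assigned to the partner.

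The split mattered most for *Rpl30*, a large subunit protein (NCBIM37 chr15:34370260-34373395, minus strand). Its pseudogene *Gm12191* was assigned 1.48 reads in WT 1, 6.72 in WT 2, 3.26 in the library labelled TRKC+/- and 92.3 in AdNTF3-Tg, while *Rpl30* had 1073, 1099, 970 and 905. The log2 ratio of *Rpl30* reads, scaled to library totals, in AdNTF3-Tg was −0.27 alone and −0.14 with the reads of *Gm12191* added. Between the mutants the same addition turned its direction, from −0.09 to 0.05. For *Rpl34*, whose partner took 36.1 to 88.7 reads, the addition moved the ratio from −0.34 to −0.35 in AdNTF3-Tg, from −0.26 to −0.32 in the library labelled TRKC+/- and from −0.08 to −0.03 between the mutants. The 68 members with whole counts in all libraries had a median log2 FPKM ratio of −0.24 in AdNTF3-Tg, the value of all 81.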

How the data were processed

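RNA from each pool was oligo(dT)-enriched and sequenced as single-end 50-base reads. According to the methods, reads were filtered with SOAPnuke and mapped to mm9 with HISAT2; the submitters' processing notes name RSEM and mm10 instead, and counting by strand is not given in the sources used here. For each gene the authors deposited an expected count, not normalized and fractional where reads fit several genes, an FPKM value and a gene length in bases. Expected counts were rounded and tested with edgeR 4.0.16 (TMM, filterByExpr, quasi-likelihood, Benjamini-Hochberg over 14156 genes, common BCV 0.0816, 1 residual degree of freedom), and with DESeq2 1.42.0 as an alternative. The script was tested on simulated data with log2 changes of 1 and 2. Whether it would call changes as small as the member medians was not tested. FPKM ratios used a pseudocount of 0.1 and a cutoff of 0.5. Wilson and Clopper-Pearson intervals cover counting error only. Symbols came from RefSeq (99.7% of identifiers), coordinates from GENCODE vM1 (NCBIM37) and promoters from RefSeq (GRCm38.p6). The methods give each mutant its own WT controls, so the spread of the WT pair, on which the p-values rest, may hold a difference between cohorts and technical error. The members and gene lists were chosen with earlier results of these data known. Named members are any called, the 3 highest and 3 lowest log2 fold changes per comparison, the 5 highest and 5 lowest levels, *Rpsa*, the stalk, paralogs and 8 members of known role; *Rpl32*, which has the smallest p, and *Rpl30*, *Rpl34* and the promoter examples were chosen after their values were seen.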

Additional observations from a re-analysis of the deposited data

Results flagged for a closer look

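*Rpl13* was flagged because the mutant libraries lay on opposite sides of the WT pair, with 418 FPKM in the library labelled TRKC+/- above both WT libraries (403 and 409 FPKM) and 346 FPKM in AdNTF3-Tg below both. Such a pattern need not be rare. Over all genes, 31.9% were above both WT libraries in the library labelled TRKC+/- and 34% below both in AdNTF3-Tg, and the share with both was not counted. The log2 ratio of 0.04 in the library labelled TRKC+/- was within counting error (interval −0.03 to 0.11). The edgeR log2 fold change of AdNTF3-Tg against the library labelled TRKC+/- was −0.28, with an unadjusted p of 0.0128 and an adjusted p of 0.940, so the difference between the mutants did not pass the test.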

How the results depend on the processing

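The edgeR test and the alternatives to it (RLE size factors, library totals only, no low-count filter, only WT and the mutant compared, DESeq2) each called 0 members in each comparison they were run for, and the log2 fold changes of the 29 named members kept their sign in all 406 refits. The number of members lower at an unadjusted p under 0.05 in AdNTF3-Tg ran from 17 (DESeq2, all genes 0.339%) to 64 (library totals only, all genes 3.95%). The test could not be run without WT replicate 1 or 2, since no residual degrees of freedom remain. All refits thus used the same WT pair, and a kept sign says little about the choice of control. In the library labelled TRKC+/-, 12 of 81 members lay between the WT libraries (all genes 5711 of 15275), and 2 did in AdNTF3-Tg (all genes 4944). For these the sign of the FPKM ratio depends on the WT library used. With 1 WT library as the only control, the median log2 ratio of members ran from −0.18 to −0.09 in the library labelled TRKC+/- and from −0.30 to −0.19 in AdNTF3-Tg, and the members past a log2 ratio of 0.5 were 1 against either in the library labelled TRKC+/- and from 1 to 3 in AdNTF3-Tg; the 3, against WT 1 alone, were *Rpl32l*, *Rpl37* and *Rps25*. Centring on genes of the same length class, chosen after seeing the data, moved the median to −0.076 in AdNTF3-Tg, −0.0795 in the library labelled TRKC+/-, −0.0065 between the mutants and −0.026 between the WT libraries. Adding the reads of *Gm12191* turned *Rpl30* between the mutants from −0.0856 to 0.0497. Rescaling each library to the same FPKM sum moved the median between the mutants from −0.104 to −0.0645. Over the settings of the log2 ratio other than length-class centring and a single control, the median ran from −0.258 to −0.184 in AdNTF3-Tg, from −0.142 to −0.122 in the library labelled TRKC+/-, from −0.119 to −0.0645 between the mutants and from −0.109 to −0.0766 between the WT libraries. The median log2 fold change of members in the edgeR and DESeq2 fits ran from −0.266 to −0.258 in AdNTF3-Tg. It ran from −0.148 to −0.142 in the library labelled TRKC+/- and from −0.128 to −0.115 between the mutants. Counting members with whole counts only gave read shares of 1.72% in WT 1, 1.57% in WT 2, 1.499% in the library labelled TRKC+/- and 1.37% in AdNTF3-Tg, and the share of the FPKM sum was 6.27%, 5.91%, 5.62% and 5.32%; the order of libraries was the same. No paired analysis was possible because the labels tie neither WT library to a mutant and each mutant has 1 library. Genotype and pool cannot be told apart with 1 pool per mutant.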
